A study of Mus musculus with 12 samples.

Results

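Histone and high mobility group (HMG) protein genes were examined in the gene lists that compare tdTomato− and tdTomato+ group 2 innate lymphoid cells (ILC2s) of the mouse lung. The genes were found by symbol (H1f, H2a, H2b, H3f, H3c, H4c, Hist1 to Hist4, Hmgb, Hmgn and Hmga, without the MHC genes, whose symbols open with H2 and a hyphen). The rule found 27 genes among 3439 listed genes. ILC2s had been sorted as CD45+Lin−CD127+CD25+ST2+ cells from lungs of male Tigit fm mice (TIGIT-Cre-ERT2:Rosa26-LSL-tdTomato), in which tamoxifen lets cells that express TIGIT, an inhibitory receptor, switch on the red protein tdTomato for good. Both populations carried the same alleles, and both came from mice given papain, a protease allergen, through the airway together with tamoxifen, so neither is an untreated control. tdTomato+ cells are cells that expressed TIGIT at or after tamoxifen, and tdTomato− cells either did not express it or were not marked by the Cre. The labels name 4 RNA-seq libraries of each population, whereas the libraries that entered the comparison are not stated in the sources used here.

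The deposited tables give each listed gene 1 average level over the libraries, in log2 CPM (read counts scaled to the size of the library), and place it in the table of genes lower or of genes higher in tdTomato+ than in tdTomato− ILC2s. They hold no value of a single library or of either population, so the spread between replicates, the overlap of the populations and the depth of the libraries are unknown. All levels below are therefore averages over both populations, with no SD and no test. They do not say how much lower a gene was. In sorted bulk samples, fewer cells that express a gene and less of its RNA per expressing cell cannot be told apart. CPM is a share of the library, so lower means a smaller share. The paper reports that non-coding transcripts, such as major satellite repeats, outweighed protein-coding ones in tdTomato+ ILC2s. The highest average log2 CPM was 16.49 in the higher table and 12.13 in the lower table. Whether the amount of mRNA per cell also fell was not tested. Of the markers of the labelled cell type, 13 of 13 ILC2 markers were listed (all as lower), so they passed the limit on the average level, among them Il1rl1, which encodes the ST2 receptor (average log2 CPM of 9.98), Ptprc (9.53) and Il7r (8.96), with Il13 (6.27) as the lowest. Of the markers of other cells, 1 of 13 of T, NK and ILC1 cells was listed (Cd3g, 6.12), as were 0 of 6 of B cells, 0 of 11 of myeloid cells and granulocytes and 0 of 7 of lung epithelium and stroma. Since a marker that did not differ between the populations would not be listed either, these counts do not measure the purity of the sort.

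Histones package DNA. The core histones H2A, H2B, H3 and H4 form the nucleosome, around which DNA is wrapped, and the linker histone H1 binds where DNA enters and leaves it. Most histone genes lie in clusters, lack introns and are switched on in S phase, when newly copied DNA needs new nucleosomes. Their mRNAs end in a conserved stem-loop in place of a poly(A) tail. The variants H3.3 and H2A.Z are made throughout the cell cycle from genes with introns and polyadenylated mRNAs, and replace core histones in chromatin outside replication. HMG proteins are abundant non-histone chromatin proteins. HMGB proteins bend DNA through HMG boxes and, when released from damaged cells, HMGB1 acts as an alarmin, whereas HMGN proteins bind nucleosomes and counter compaction by H1.

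All 27 genes were listed as lower in tdTomato+ ILC2s, and 0 were listed as higher. This direction was the common one, since 84.5% of all listed genes were in the lower table (2906 of 3439), so the direction alone does not set the genes apart. Among 21900 annotated protein-coding genes, 13.2% were listed as lower. The symbol rule matched 112 annotated protein-coding genes, of which 24.1% were listed, and the 30 variant genes outside the classes below, among them H2ax and H2aj, contributed 0. Within the named classes, 32.9% of 82 genes were listed. The replication-dependent genes of the clusters accounted for 18 of the 27 (28.6% of 63 annotated), and the remaining classes for 9 (47.4% of 19 annotated). A gene that is not listed can have been under the limit on the average level or not past the authors' test, and the tables do not tell these apart. It can also have lost reads that fit several near-identical genes, since their treatment is not stated. The limit asks for a higher level per kb of short transcripts, as given below, so the shares of the classes are not on equal terms.

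**Figure D1:**
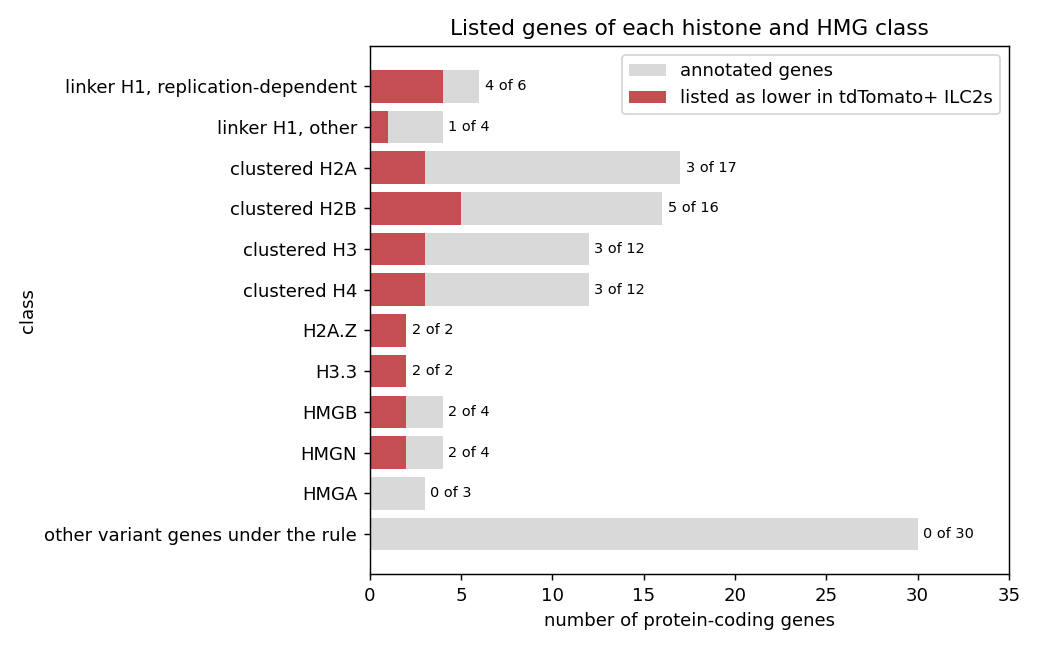
Number of annotated protein-coding genes (grey bars) and of genes listed as lower in tdTomato+ ILC2s (red bars) in each class. H2A.Z and H3.3 were complete with 2 of 2, the clustered core histones ranged from 3 of 17 (H2A) to 5 of 16 (H2B), and HMGA had 0 of 3.

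The replication-dependent linker histones had the highest share among the clustered classes, with 4 of 6 listed. H1f2 had an average log2 CPM of 8.59, which divided by its transcript length of 725 bases was 531 CPM per kb. It ranked 43 of 3390 listed genes with a transcript length on the scale of CPM per kb. H1f3 (average log2 CPM of 7.32) stood at 207 CPM per kb, H1f4 (6.37) at 105 and H1f5 (5.57) at 59.8. Per kb of transcript, H1f2 thus stood 1st among the 27 genes and H1f3 3rd, whereas per kb of coding sequence H1f2 stayed 1st (603 CPM per kb) and H1f3 was 7th (241), and no error is known for the steps between them. H1f1 and the testis gene H1f6 were not listed. Of the H1 genes outside the S-phase group, 1 of 4 was listed: H1f0, which encodes the H1.0 protein of resting and differentiated cells, with an average log2 CPM of 5.20 and 16.0 CPM per kb, the lowest level per kb of transcript of the 27. Its transcript has 2293 bases, and per kb of coding sequence H1f0 (62.8) stood above Hmgn5 (51.6). H1f7, H1f8 and H1f10 were not listed. By their reference proteins the listed S-phase H1 genes are 74.0% to 86.4% identical to each other and 40.4% to 42.9% identical to H1.0. Lysine and arginine make up 29.2% of the H1f2 protein and 32.0% of the H1f0 protein.

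The promoters of the 4 listed S-phase H1 genes shared an arrangement. Each held the H1 box AAACACA 112 to 122 bases before the start, and a CCAAT box 51 to 54 bases before it. The window of H1f2, where capitals mark these 2 motifs, shows it (chr13:23738657-23738806, plus strand, GRCm38.p6, 150 bases up to the start, 5′ to 3′).

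H1f2: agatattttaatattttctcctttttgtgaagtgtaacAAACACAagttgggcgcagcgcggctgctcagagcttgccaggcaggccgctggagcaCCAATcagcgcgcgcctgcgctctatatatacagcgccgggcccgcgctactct

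H1f3, H1f4 and H1f5 also held TATAAA 26 to 28 bases before the start, whereas H1f2 has a run of alternating t and a there that does not match these letters. The H1 box was also present in the window of H1f6, which was not listed, and absent from that of H1f1. Both of these windows held CCAAT, and that of H1f1 also held TATAAA. Positions were taken for the listed genes only, so the arrangement is not shown to be particular to them. Over 17492 protein-coding genes with a window, 7.17% held AAACACA on either strand. The H1 box was added to the search after the other motifs had been counted.

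The clustered core histone genes were listed in part, with members of all 4 core histones. Of H2A, 3 of 17 annotated genes were listed, with average log2 CPM of 5.79 for H2ac4, 5.31 for H2ac10 and 5.13 for H2ac13, or 110, 78.8 and 78.1 CPM per kb. Of H2B, 5 of 16 were listed. H2bc3 (average log2 CPM of 6.19), H2bc8 (5.99) and H2bc15 (5.92) lay between 127 and 149 CPM per kb, H2bc4 (5.62) at 67.7 and H2bc6 (5.65) at 20.0. The low level of H2bc6 per kb rests on its reference transcript of 2506 bases, since per kb of coding sequence it was 132, close to 129 for H2bc4. Of H3, 3 of 12 were listed, namely H3c6 (average log2 CPM of 6.37), H3c2 (6.14) and H3c4 (5.44), with 90.8, 142 and 86.3 CPM per kb. Of H4, 3 of 12 were listed, namely H4c4 (average log2 CPM of 6.95), H4c12 (5.33) and H4c3 (5.14), with 307, 98.2 and 94.1 CPM per kb. H4c4 was thus 2nd per kb of transcript among the 27 genes and 5th per kb of coding sequence (396 CPM per kb), behind H1f2, H3f3b (597), Hmgb2 (420) and Hmgb1 (398). Summed over the listed clustered genes, the levels per kb were 903 for H1, 267 for H2A, 500 for H2B, 319 for H3 and 499 for H4. These sums cover listed genes only and are no measure of the total of a histone.

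**Figure D2:**
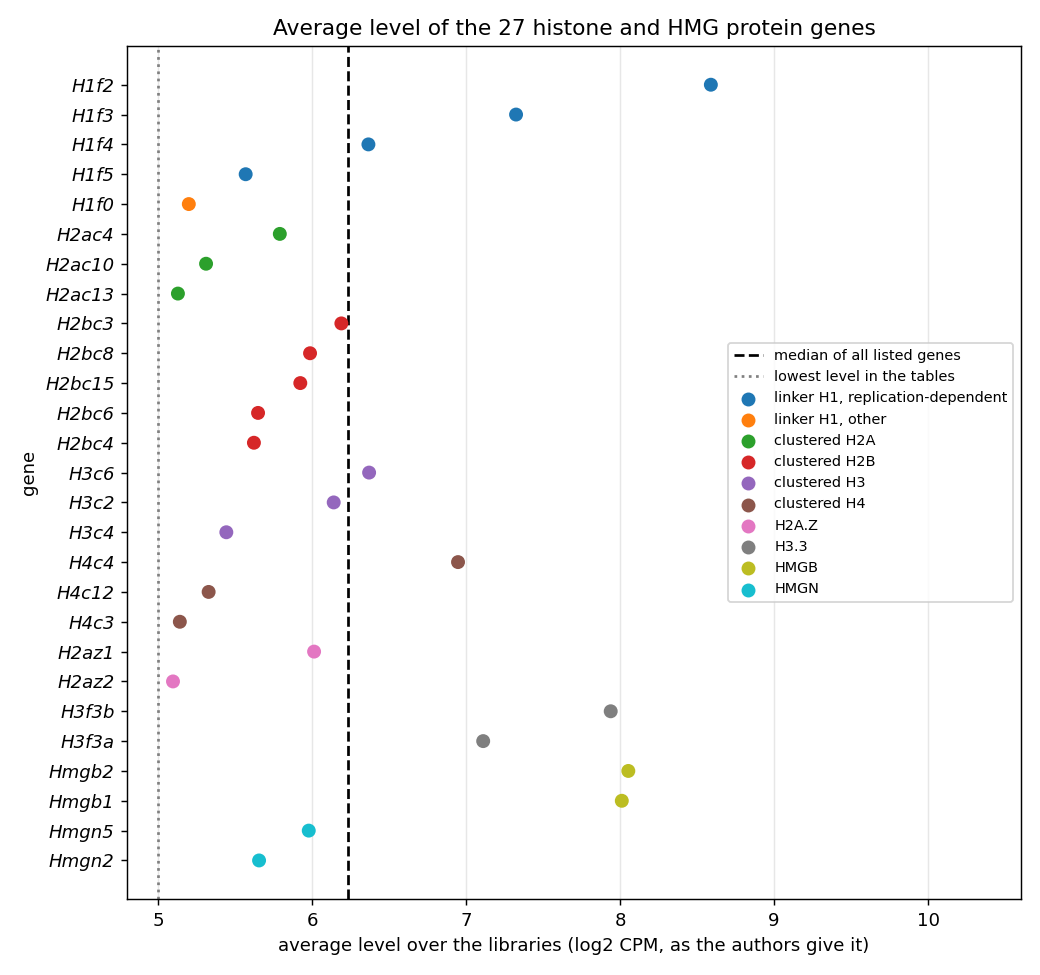
Average level over the libraries (log2 CPM) of the 27 genes, coloured by class, with the median of all listed genes (dashed, 6.23) and the lowest level in the tables (dotted, 5.00). H1f2, Hmgb2 and Hmgb1 lay above 8, and 18 of the 27 genes lay left of the dashed line.

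The 18 clustered genes all lay on chromosome 13. In a block at chr13:23531044-23934913 (GRCm38), 14 of 31 annotated histone genes were listed, and in the neighbouring block at chr13:21715711-22043658, 4 of 22 (H2ac13, H4c12, H2bc15 and H1f5). The smaller blocks on chromosome 3 and chromosome 11 had 0 of 10 and 0 of 3. Several listed genes start next to an unlisted one that points the other way. H2bc8 starts 180 bases from H2ac8, H2bc15 starts 164 bases from H2ac15, H2bc4 starts 240 bases from H2ac6, and H2ac13 starts 229 bases from H2bc13, and 0 of these 4 partners were listed. Of all 63 annotated clustered genes 28.6% were listed, and of the H2A genes 3 of 17. With only 4 pairs, the count does not set the partners apart. Of the 18 genes, 16 have 1 exon, the exceptions being H2bc4 and H2bc6 with 2 each.

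The 3′ stem-loop that marks replication-dependent histone mRNAs was present in all 18 clustered genes and in 0 of the 9 others. It was searched in the 100 bases after the stop codon as 16 bases with a stem of 6 pairs, opening with GG and closing with CC, and a loop of 4 bases that opens with TT. It began 25 to 56 bases after the stop codon. Over all 21774 protein-coding genes searched, 0.317% held such a stretch, and of the 63 annotated clustered genes 57 did, so the stem-loop does not separate listed from unlisted genes. The listed genes held 3 forms, shown with the stem in capitals for H1f2 (chr13:23739512-23739527, plus strand), H2bc3 (chr13:23747203-23747218, plus strand) and H4c4 (chr13:23581950-23581965, plus strand).

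H1f2: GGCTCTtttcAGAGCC

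H2bc3: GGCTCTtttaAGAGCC

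H4c4: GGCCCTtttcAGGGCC

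The form of H1f2 was found in 13 genes of H1, H2A, H2B and H3. The form of H2bc3 was shared with H3c6, and that of H4c4 with the other listed H4 genes, H4c3 and H4c12.

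Both genes of H3.3 and both of H2A.Z were listed, unlike the other variant genes above. H3.3 is encoded by H3f3a and H3f3b, 2 genes whose proteins are 100% identical although their coding sequences are 77.1% identical. H3f3b had an average log2 CPM of 7.94 and H3f3a of 7.11, which were 123 and 127 CPM per kb of their transcripts of 1993 and 1086 bases. Per kb of coding sequence, which is 411 bases in both, H3f3b (597 CPM per kb) stood above H3f3a (336), so their order depends on the length used. The protein of H3c2 is 97.1% identical to H3.3. H2A.Z, a variant found at promoters, is encoded by H2az1 and H2az2, whose proteins are 97.7% identical. H2az1 had an average log2 CPM of 6.01 and H2az2 of 5.10, with 60.4 and 20.9 CPM per kb. H2az2 was the lowest of the 27 in log2 CPM and lay just above the limit of the tables. H3f3a lies on chr1:180802560-180813605, H3f3b on chr11:116021961-116026039, H2az1 on chr3:137864487-137866922 and H2az2 on chr11:6427226-6444511 (GRCm38), each with 4 or 5 exons.

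Among HMG genes, 2 of 4 HMGB genes were listed. Hmgb2 had an average log2 CPM of 8.05 and Hmgb1 of 8.01, or 96.5 and 85.0 CPM per kb of transcripts of 2752 and 3035 bases. Hmgb3 and Hmgb4 were not listed. The HMGB1 and HMGB2 proteins are 79.5% identical and end in unbroken runs of acidic residues, of 30 in HMGB1 and 23 in HMGB2. Of HMGN, Hmgn5 (average log2 CPM of 5.98, 33.1 CPM per kb) and Hmgn2 (5.66, 40.2 CPM per kb) were listed, and Hmgn1 and Hmgn3 were not. HMGN2 has 90 residues and HMGN5 has 406, of which 37.9% are acidic. Of HMGA, 0 of 3 genes were listed (Hmga1, Hmga1b and Hmga2). Together H1f2, Hmgb2, Hmgb1 and H3f3b made up 43.5% of the summed CPM of the 27 genes, and the 27 genes 0.506% of the summed CPM of all listed genes.

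Seen together, the 27 genes had a median average log2 CPM of 5.98, with a range of 5.10 to 8.59, against 6.23 for all listed genes and 6.39 for the lower table, and 9 of the 27 lay above the median of all listed genes. Divided by transcript length the picture was the opposite. The median was 94.1 CPM per kb (16.0 to 531) against 21.8 for all listed genes and 24.2 for the lower table, 24 of 27 lay above the median of all listed genes and 20 were in the top 10% of genes. The transcripts of the 27 genes had a median length of 776 bases and those of all listed genes of 3750.5 bases. The limit on the average level, which was 32 CPM in the tables, acts on this scale: at the median length of the clustered genes, 504 bases, a gene had to reach 63.5 CPM per kb to be listed, and at the median length of all listed genes 8.54. Among the 176 listed genes with transcripts of at most 1000 bases, the median was 106 CPM per kb for the 17 histone genes and 124 for the 159 others, and 7 of the 17 lay above the median of the others. The high levels per kb were therefore not particular to histone genes among short listed genes.

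**Figure D3:**
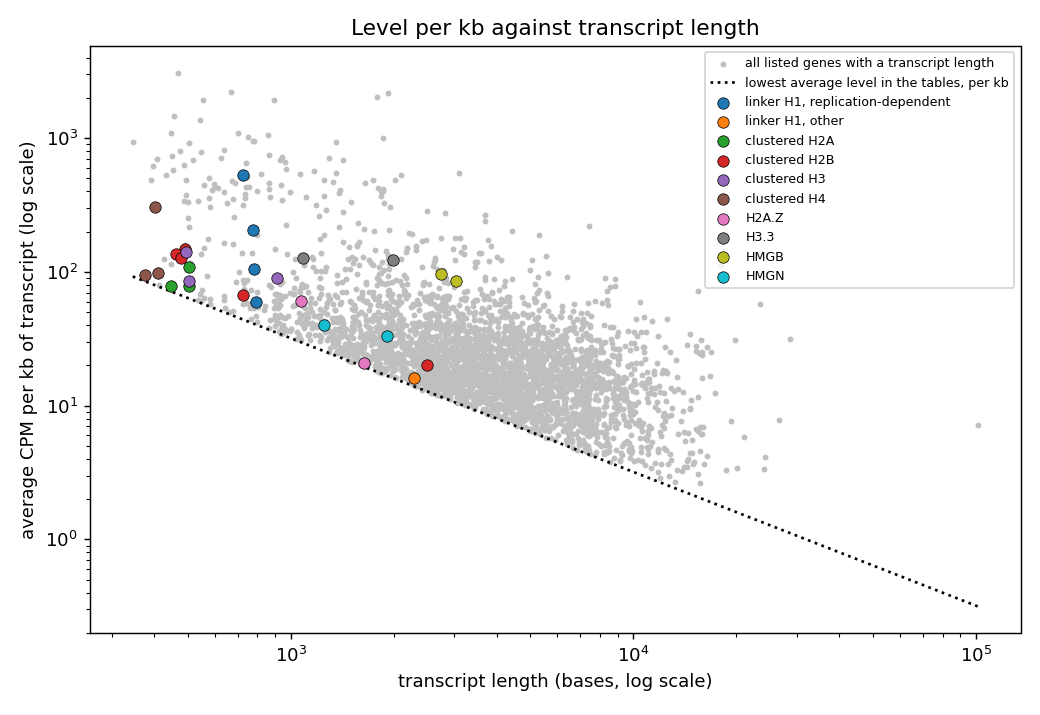
Average CPM per kb of transcript against transcript length (both log scales) for all listed genes (grey) and the 27 genes by class (coloured). The dotted line is the lowest average level in the tables (32 CPM) divided by length, and most clustered histone genes lie at the short end, close above it.

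The promoters of the remaining genes were compared by the same letters. Windows of 300 bases, 250 before and 50 after the start, were held in the reference for 26 of the 27 genes (all but H2bc4). CCAAT, the motif bound by NF-Y, was found on either strand in 24 of 26, against 42.3% of all protein-coding genes. TATAAA was found in 11 of 17 clustered genes and in 1 of 9 others (H3f3b), against 14.8% of all genes. The octamer ATTTGCAT, bound by OCT1 and known from H2B promoters, was found in 5 of 26 (H3f3b, H2bc3, H2bc8, H2ac4 and H2bc6), against 1.90% of all genes. GGGCGG, the GC box bound by SP1, was found in 7 of 9 genes outside the clusters and in 6 of 17 clustered genes, against 49.2% of all genes and 75.9% of the genes of the lower table. The 41 clustered genes that were not listed and had a window are shown beside the listed ones, with CCAAT in 82.9% (94.1% of the listed), TATAAA in 56.1% (64.7%), ATTTGCAT in 22% (23.5%) and GGGCGG in 41.5% (35.3%). No test was made of these differences, and a match says nothing about binding in these cells.

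The following windows show the range, from clustered genes to HMG genes. They are the 150 bases up to the start, 5′ to 3′, with the motifs just named, the H1 box or their complements in capitals. They come from RefSeq (GRCm38.p6) at chr13:23571250-23571399, plus strand for H2bc8, chr13:23581418-23581567, plus strand for H4c4, chr11:116024505-116024654, minus strand for H3f3b, chr3:137864337-137864486, plus strand for H2az1 and chr8:57511693-57511842, plus strand for Hmgb2.

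H2bc8: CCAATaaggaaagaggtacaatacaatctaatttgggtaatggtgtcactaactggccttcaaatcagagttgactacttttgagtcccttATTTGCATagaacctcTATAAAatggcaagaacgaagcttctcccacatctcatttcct

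H4c4: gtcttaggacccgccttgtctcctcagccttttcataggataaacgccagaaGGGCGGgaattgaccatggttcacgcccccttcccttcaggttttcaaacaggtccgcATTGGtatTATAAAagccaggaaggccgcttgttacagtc

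H3f3b: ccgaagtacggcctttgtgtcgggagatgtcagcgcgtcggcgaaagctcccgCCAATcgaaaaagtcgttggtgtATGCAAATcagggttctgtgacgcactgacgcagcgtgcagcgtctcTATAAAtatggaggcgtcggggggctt

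H2az1: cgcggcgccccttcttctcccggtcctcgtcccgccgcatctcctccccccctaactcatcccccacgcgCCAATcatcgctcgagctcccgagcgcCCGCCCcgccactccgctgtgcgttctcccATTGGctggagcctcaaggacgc

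Hmgb2: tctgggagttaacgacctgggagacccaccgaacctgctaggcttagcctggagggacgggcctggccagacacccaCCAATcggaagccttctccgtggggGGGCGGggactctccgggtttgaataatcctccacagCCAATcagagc

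H2bc8 carries the octamer shortly ahead of TATAAA, and H4c4 carries CCAAT (as its complement) shortly ahead of it. H3f3b, although outside the clusters, carries CCAAT, the octamer and TATAAA. H2az1 and Hmgb2 carry CCAAT and GC boxes and no TATAAA.

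**Figure D4:**
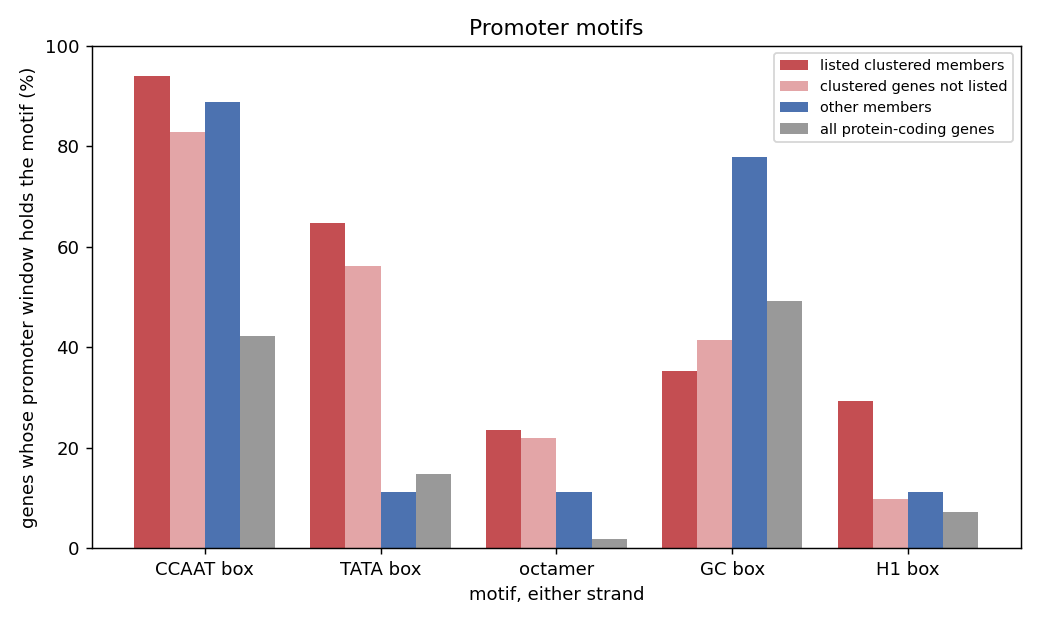
Share of genes whose 300-base promoter window holds each motif on either strand, for the listed clustered genes (17), the clustered genes that were not listed (41), the other listed histone and HMG genes (9) and all protein-coding genes (17492). In both groups of clustered genes the CCAAT bar is the highest and the TATA bar the next. The bar of the H1 box is higher in the listed group (29.4% against 9.76%), which holds more H1 genes. The listed genes with the box are H1f2, H1f3, H1f4, H1f5 and H2ac4. The group that was not listed has only H1f1, without the box, and H1f6, with it, as S-phase H1 genes.

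How far the level of each gene is its own depends on near-identical copies. The proteins of the listed H4 genes are 100% identical, as are those of the listed H3 genes, and those of H2A and H2B are at least 99.2% and 96.8% identical. Their coding sequences are 92.6% to 94.0% (H4), 97.6% to 98.8% (H3), 97.5% to 98.0% (H2A) and 94.0% to 98.7% (H2B) identical. The share of the 100-base windows of a gene's transcripts that also occur in transcripts of another gene was 88.4% for H2ac13, 79.3% for H2ac10, 64.3% for H4c12, 56.6% for H3c2, 52.4% for H2ac4 and 52.1% for H2bc15. The levels of these 6 genes, and to a lesser degree those of H2bc8 (44.9%), H3c6 (42.9%) and H2bc3 (32.8%), are uncertain, since the sources used here do not state how reads that fit several genes were counted. The same holds for H2bc4 (25.4%), H3c4 (20.4%), H4c3 (14.0%) and H2bc6 (12.1%), whose annotated transcripts are longer, so that for H2bc6 the share is 536 of 4443 windows. In contrast, H1f5, H4c4 and H2az2 shared 0 windows of 100 bases, and H1f3, H3f3b, H1f0 and H1f2 shared 0.792% to 5.07%. Longer annotated transcripts lower some of these shares too. H1f3 had 7326 windows, H1f2 1461 and H4c4 1039, against RefSeq transcripts of 776, 725 and 402 bases. With windows of 50 bases, H4c4 shared 10.2% and H1f2 8.54%, whereas H1f5 and H2az2 stayed at 0. For H1f4, the 24.7% shared came mostly from transcripts annotated for H2bc6 (21.7%). For genes outside the clusters, the copies were mostly genes without a name. Hmgb1 shared 18.1% with 52 genes, H3f3a 20.8% with 15 genes, Hmgn2 17.0% with 6 genes, Hmgb2 16.7% with 5 genes and Hmgn5 13.3% with 1 gene, and H2az1 shared 25.7%, all of it found in a transcript of Tmcc1. In the reference, H2bc6 overlaps Gm33387 and Hmgn5 overlaps Gm23322.

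**Figure D5:**
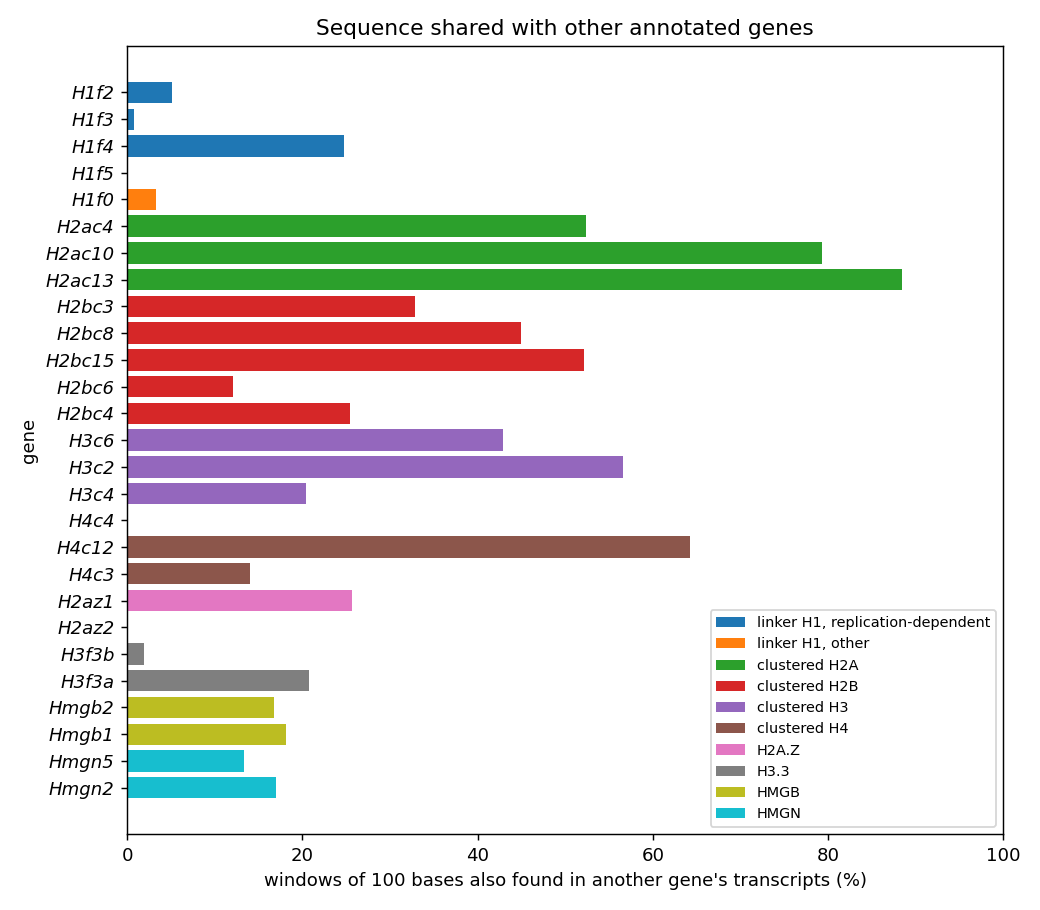
Share of the distinct 100-base windows of each gene's transcripts that are also found, on either strand, in transcripts of another gene, coloured by class. The H2A genes reach 52.4% to 88.4%, whereas H1f5, H4c4 and H2az2 are at 0.

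Genes that handle histones were listed in the same direction, with 0 in the higher table. Of 32 annotated histone chaperones and exchange factors, 19 (59.4%) were listed as lower, with a median average log2 CPM of 7.14. They included Npm1, nucleophosmin (8.65), Atrx, which places H3.3 at repeats together with DAXX (8.42), and Ep400, which exchanges H2A.Z (7.90), with Ruvbl1 (5.03) as the lowest, whereas Asf1a, Asf1b, Nasp, Hira, Daxx, Chaf1a and Chaf1b were not listed. Of 19 genes of histone mRNA processing, 7 (36.8%) were listed as lower, with a median of 6.08. They were led by Tut7, a uridylyl transferase (7.12), and by Srrt and Upf1 (6.29 each), with Cstf2 (5.56) as the lowest, and included Slbp, the stem-loop binding protein (5.74). Of 24 S-phase and proliferation genes, 11 (45.8%) were listed as lower, with a median of 6.14, including Mki67 (8.49), Top2a (7.62) and the helicase subunit Mcm6 (6.78), with Dut (5.21) as the lowest. All 6 genes of the MCM2 to MCM7 helicase were among them, whereas Ccne1, Ccne2, Ccna2, Cdk1, Cdk2 and E2f1 were not listed. Of 21 HMG-box, histone-variant and other chromatin genes outside the symbol rule, 12 (57.1%) were listed as lower (Ssrp1 among them is also counted with the chaperones). The 12 had a median of 6.85 and included Pbrm1 (7.67), Hp1bp3, a relative of H1 (7.36), and Sp100 (7.35), with Tox4 (5.46) as the lowest. These shares stand beside 13.2% of all annotated protein-coding genes, but the lists hold widely expressed genes, and the share of expressed genes that were listed is not known here.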

How the data were processed

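RNA was measured in ILC2s sorted as tdTomato− or tdTomato+ (4 libraries of each per the labels), from libraries of a SMART-Seq kit that keeps strand. The authors used FASTP for quality checks of the paired-end reads, STAR for alignment to GRCm39, featureCounts with an Ensembl annotation for counts per gene, and edgeR for the comparison of tdTomato+ with tdTomato− cells. Versions of these tools, normalization, read length, the use of strand and the treatment of reads that fit several genes are not given in the sources used here. The deposited average log2 CPM of each listed gene was used as the authors give it. The fold change, likelihood ratio, p-value and false discovery rate columns are the authors' own comparison and were not used. The lowest average in the tables was a log2 CPM of 5.00. Depth is unknown, so no interval is given.

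CPM per kb was 2 to the power of the deposited log2 CPM divided by the length of the RefSeq transcript (GRCm38.p6), which was found for 3390 of 3439 genes by symbol. RefSeq has another build than the GRCm39 that the paper names, so coordinates are given only as GRCm38.p6. A promoter window is 250 bases before to 50 after an annotated start, and a gene held a motif if any of its windows did. Proteins were translated from RefSeq coding sequences and aligned globally with BLOSUM62. Shared windows were searched in GENCODE M21 transcripts. Motif, stem-loop and window searches were tested on simulated data. Python 3.11.15, pandas 2.3.3, numpy 2.4.6 and Biopython 1.88 were used. All genes found by the rule are named. Of other lists, the 3 highest and the lowest by average level are named, and unlisted genes were otherwise chosen after the lists were seen. The members and lists were chosen with earlier results of these data known. ATAC-seq, with 2 libraries per population, is not analysed here.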

Additional observations from a re-analysis of the deposited data

How the results depend on the processing

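No paired analysis was possible because the tables hold no value of single libraries, and for the same reason no library could be left out. The median average log2 CPM was 6.01 with the HMG-box, histone-variant and other chromatin genes outside the symbol rule added (39 genes). It was 6.01 without the clustered genes and 7.03 with only genes of at least 6, of which there were 12 of 27. The median percentile of log2 CPM was 39.3 among all listed genes and 32.5 within the lower table. Per kb of coding sequence the median was 159 CPM per kb. The median percentile per kb was 93.4 by transcript length, 89.2 by coding length and 48.9 among listed genes with transcripts of at most 1000 bases, an alternative chosen after seeing the data. With linear gaps, the lowest protein identity was 46.9% among H1, 81.0% for HMGB and 16.7% for HMGN (11.1% with affine gaps). With windows of 150 bases, 3 genes shared over 50% of their windows, and 7 with windows of 50 bases, against 6 with 100, both lengths chosen after seeing the data. Motif counts moved by at most 2 genes when the promoter was limited to the 150 bases nearest to the start (100 before and 50 after), except for the H1 box, which was left in 1 gene of 6.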
